A study of Mus musculus with 4 samples.

Results

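Type B intercalated cells of the mouse kidney were examined after ischemia-reperfusion (I/R), in which the renal blood supply is stopped and then restored. A barcode was a member when it carried at least 3 unique molecular identifiers (UMIs) of the proton pump genes Atp6v1g3 and Atp6v0d2 together. It also needed at least 2 UMIs of Slc26a4 and Slc4a9 together, more of these than of the type A genes Slc4a1 and Aqp6, no UMI of the leukocyte gene Ptprc and fewer than 3 of the distal tubule gene Slc12a3. The rule selected 206 of 37839 kept barcodes, which had no fewer than 200 detected genes and a mitochondrial share of UMIs up to 50%. The library of I/R kidney at day 5 held 10 members, that of Lac.z-treated mice at day 5 held 11, day 14 held 54 and day 28 held 131. All mice were male C57BL/6 mice with I/R injury. Lac.z denotes gavage with Lactobacillus casei Zhang at 1e9 colony-forming units per day for 4 weeks before the injury, and the day 14 and day 28 libraries carried no such label. Each group was 1 library of dissociated kidney. Neither the animals behind a library nor their age is stated, and no uninjured kidney was analysed here. With 1 library per group, comparisons of libraries have no replicate spread and no test.

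Intercalated cells sit among the principal cells of the connecting tubule and collecting duct and move acid and base between urine and blood. Type A cells secrete protons through an apical vacuolar H+-ATPase and return bicarbonate through the basolateral exchanger AE1 (Slc4a1). Type B cells carry the pump mainly on the basolateral side and secrete bicarbonate in exchange for chloride through apical pendrin (Slc26a4), with AE4 (Slc4a9) on the basolateral side, so they take part in both alkali excretion and chloride reabsorption.

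The libraries held 76678882 to 104454319 UMIs in 8168 to 15583 barcodes, of which 7043 to 14138 were kept. The median member held 19817 UMIs at day 5, 16436 after Lac.z, 16577.5 by day 14 and 8377 by day 28. Their median mitochondrial share was 19.7%, 15.9%, 17.4% and 22.8% in the same order. A doublet score, which marks barcodes resembling a mixture of 2 cells, placed 36 of the 206 members among the highest-scoring barcodes of their libraries. These were 2 of 10 at day 5, 1 of 11 with Lac.z, 9 of 54 at day 14 and 24 of 131 at day 28. Over all kept barcodes the doublet-scored shares were 6.17%, 6.20%, 8.23% and 11.9% in the same order. Type A intercalated cells had 54 of 291 doublet-scored and principal cells 31 of 171. At day 5 the 2 doublet-scored members held 32.5% of all members' UMIs, so the day 5 values below rest on few cells. Without these 2 barcodes the day 5 level was 1345 instead of 969 CPM for Slc26a4, 742 instead of 501 for Hmx2, 229 instead of 159 for Insrr and 589 instead of 421 for Foxi1, and values below include them unless stated. No member barcode was shared between libraries as a member, and 2 member barcodes also occurred as a kept barcode of another library. Macrophage marker genes summed to 35.3 to 229 UMIs per 1000000 UMIs (CPM) in members, Adgre1 was at 0 in every library, and all 4 podocyte markers were at 0.

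Type B cells were 0.141% of kept barcodes at day 5 (exact 95% interval 0.0677% to 0.259%). With Lac.z at day 5 they were 0.156% (0.0780% to 0.279%). At day 14 the share was 0.564% (0.424% to 0.735%) and at day 28 it was 0.927% (0.775% to 1.10%). The intervals of the 2 day 5 libraries overlapped almost wholly, and those of days 14 and 28 lay above them without overlap. The share with Lac.z was 1.11 times that at day 5 (0.427 to 2.91), the day 14 share was 4.00 times that at day 5 (2.02 to 8.80) and the day 28 share was 1.64 times that at day 14 (1.19 to 2.30). These intervals cover counting error only. The denominator moved with the leukocytes: among kept barcodes without a Ptprc UMI the shares were 0.412%, 0.232%, 0.723% and 1.03%, and the ratio of day 14 to day 5 was 1.76 (0.886 to 3.87). With each barcode thinned to 2000 UMIs the shares of kept barcodes were 0.0797% (5 members), 0.119%, 0.492% and 0.647%. The day 14 to day 5 ratio was then 6.18 (2.46 to 20). The day 28 to day 14 ratio was 1.32 (0.897 to 1.95), an interval that includes 1. Among barcodes with no Ptprc UMI left after thinning, the day 14 to day 5 ratio was 4.42 (1.76 to 14.3). Thinning also removes Ptprc UMIs: at day 5, 3802 of 6277 barcodes lacked one after thinning, against 2430 of 7086 before. The denominator of the 4.42 can therefore hold leukocytes, and it is not comparable with the 1.76. Type A cells, chosen by the mirrored rule, numbered 16, 23, 64 and 188, and their share of kept barcodes at day 14 was 2.96 times that at day 5 (1.69 to 5.49). Type B cells made up 38.5% of type A plus type B cells at day 5, 32.4% after Lac.z, 45.8% at day 14 and 41.1% at day 28, with overlapping intervals. In dissociated tissue, fewer cells of a type and poorer recovery of that type cannot be told apart.

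**Figure D1:**
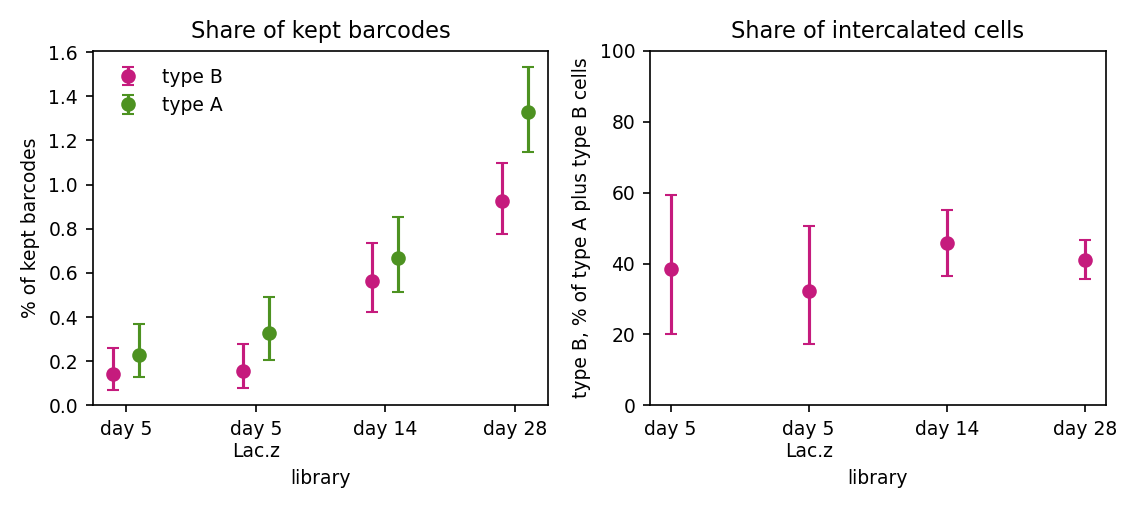
Left, type B and type A intercalated cells as % of kept barcodes in each of the 4 libraries; right, type B cells as % of type A plus type B cells. Points are single libraries and bars are exact 95% intervals of counting error. The type B share rises from 0.141% at day 5 to 0.927% at day 28, and the share among intercalated cells stays between 32.4% and 45.8%.

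The genes that chose the members are given as a description. Pendrin RNA (Slc26a4) stood at 969, 784, 1496 and 1465 CPM in the order day 5, Lac.z, day 14 and day 28. AE4 RNA (Slc4a9) stood at 131, 75.2, 235 and 94.6 CPM. Both transcripts were found in 108 of 206 members (52.4%), Slc26a4 without Slc4a9 in 91 and Slc4a9 without Slc26a4 in 7. Joint detection was 8 of 10, 8 of 11, 34 of 54 and 58 of 131 by library, and the day 28 members were also the shallowest. The pump subunit Atp6v1g3 had 5027, 9475, 6382 and 8000.1 CPM. A type A transcript occurred in 31 members (15.0%), and 62 intercalated barcodes met the minimum of both types, of which 15 counted as type B, 45 as type A and 2 as neither. At the edge of the rule, the 26 members with exactly 2 Slc26a4 and Slc4a9 UMIs had 75.3 CPM of Insrr against 277 CPM in the 180 members with more and 17.7 CPM in 25 barcodes left out with 1 such UMI.

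Markers that the rule did not use were then checked, although they come from the same cells. Insrr (chromosome 3, 87796951 to 87816101 in GRCm38) encodes the insulin receptor-related receptor, an alkali-sensing receptor. Its RNA was detected in 7 of 10, 10 of 11, 35 of 54 and 80 of 131 members against 0 of 16, 0 of 23, 1 of 64 and 5 of 188 type A cells. Among principal cells it was in 0 of 171. Barcodes of proximal tubule, which should lack it, carried an Insrr UMI in 0 of 1279, 0 of 3981, 3 of 5574 and 6 of 9595 cases, a far lower share. Their median depth was 5687 to 8359 UMIs against 8377 to 19817 in members. Oxgr1, the 2-oxoglutarate receptor that is often used as a type B marker, did not separate the classes in that direction: it stood at 60.8, 220, 148 and 199 CPM in type B cells and at 202, 236, 268 and 289 CPM in type A cells. The RNA of Slc4a8, a sodium-driven exchanger, was sparse, at 5.53 to 18.7 CPM.

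**Figure D2:**
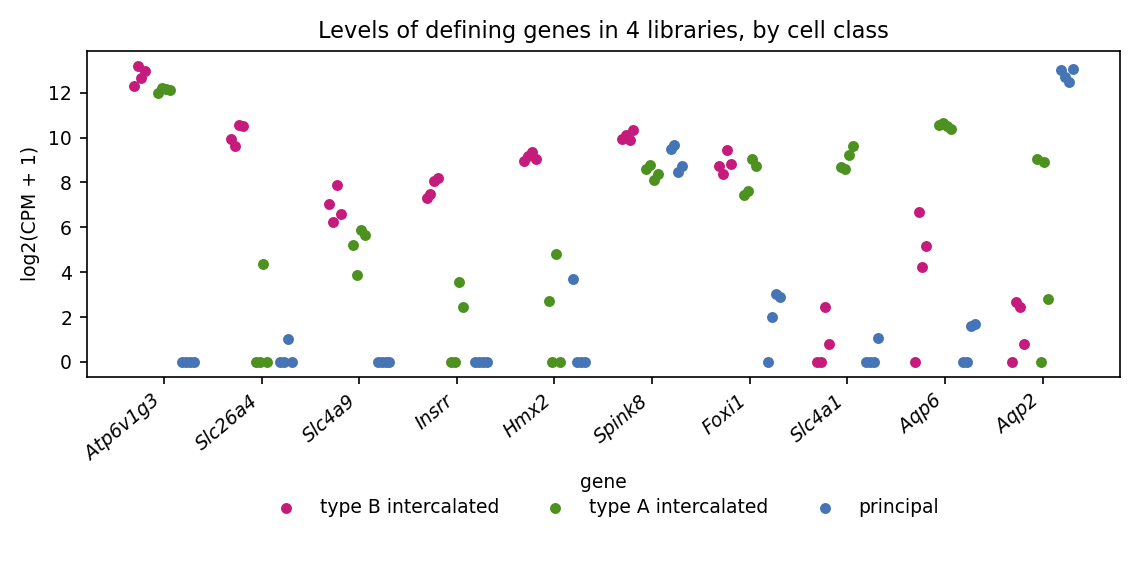
Levels as log2(CPM + 1) of 10 defining genes in type B, type A and principal cells; each point is the sum over the cells of 1 library, ordered from left to right as day 5, day 5 with Lac.z, day 14 and day 28. Atp6v1g3, Slc26a4, Slc4a9, Slc4a1, Aqp6 and Aqp2 chose the classes. Insrr and Hmx2, which did not, lie at 159 CPM or more in every type B library and at 26.8 CPM or less in every type A library.

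Type B cells were compared with type A cells of the same libraries to show where the 2 intercalated types part. UMIs were summed per library and type, and edgeR's quasi-likelihood test was run with the library as a block over 6450 genes, leaving out the genes of the rule. At a Benjamini-Hochberg adjusted p under 0.05, 319 genes were higher in type B cells (4.95% of those tested) and 316 were lower (4.90%). At an unadjusted p under 0.05 there were 1415. The 4 libraries differ in time and treatment and are the only replicates, and leaving out the day 14 library reduced the counts to 114 and 102, leaving out day 28 to 121 and 121. DESeq2 called 169 and 129.

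The genes higher in type B cells included a receptor, a transcription factor and a secreted binding protein. Insrr had 159, 177, 263 and 291 CPM in type B cells in library order, against 0, 0, 11 and 4.51 CPM in type A cells, a log2 difference of 5.66 (SE 0.29, adjusted p = 7.3e-11). Hmx2, a homeobox transcription factor on chromosome 7 (131548773 to 131558014), had 501, 580, 646 and 523 CPM against 5.60, 0, 26.8 and 0 CPM, with a log2 difference of 6.32 (SE 0.41, adjusted p = 1.7e-09). For both genes the lowest type B library lay above the highest type A library. Igfbp5, which encodes a secreted protein that binds insulin-like growth factors, had 168, 607, 673 and 736 CPM against 14, 0, 11 and 26 CPM (log2 difference 5.26, SE 0.28, adjusted p = 8.0e-11). The day 5 library was the low one among type B cells for this gene. Spink8, a Kazal-type protease inhibitor gene, was 974, 1111, 964 and 1305 CPM against 384, 437, 273 and 330 CPM, 1.68 higher on the log2 scale (SE 0.16). The groups did not overlap, and principal cells had 356 to 826 CPM.

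The other genes at the top of the ranking were near or at 0 in type A cells. Syt7, encoding the calcium sensor synaptotagmin 7, had 315 UMIs in members and 1 in type A cells. Aldh1l2, a mitochondrial folate enzyme gene, had 241 and 2 UMIs. Ank, the gene of a membrane protein that exports pyrophosphate, had 194 and 3 UMIs, and Myo5a, the motor of vesicle transport on actin, had 565 and 11 UMIs. Chl1, a cell adhesion gene, had 62 and 2 UMIs. For Myo5a 1 cell held 26.6% of the UMIs. Dcn, the gene of the matrix proteoglycan decorin, had 170 and 1 UMIs, 49.7 to 80.5 CPM in every type B library. Decorin is a fibroblast marker. Of the other listed fibroblast and mural cell markers, Col1a1, Col3a1, Pdgfrb and Rgs5 were at 0 in members of all 4 libraries. The level of Col1a2, also listed, is not given here, and the source of the Dcn RNA was not tested. Sprr1a, a cornified envelope gene, had 123 UMIs in members and none in type A cells, and 1 cell held 48.8% of them. Every one of these 10 genes was higher in type B cells in 4 of 4 libraries, a description only, since the same libraries chose them. Of all 6450 tested genes, 674 (10.4%) had no overlap between the 2 types over the libraries, in either direction.

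Genes lower in type B cells included several of known type A or principal cell use. Lrrc31 had 2 UMIs in members and 433 in type A cells (log2 difference -7.02, SE 0.41, adjusted p = 3.6e-10). Pgm5, a phosphoglucomutase-like gene of adherens junctions, had 1 and 185 UMIs. Ckb, the cytosolic brain-type creatine kinase that rebuilds ATP from phosphocreatine, stood at 9.36, 42.9, 17.7 and 45.8 CPM against 277, 364, 444 and 464 CPM (log2 difference -3.73, SE 0.22, adjusted p = 4.7e-10). Cryab, a small heat shock protein gene, Muc20, a membrane mucin gene, Pitpnc1, a phosphatidylinositol transfer gene, and the transcript 2610016A17Rik were also among the 10 lowest. The remaining 3 were Fxyd4 (9 against 320 UMIs), which modulates the sodium pump, Hsd11b2 (33 against 509), which inactivates cortisol, and Pigr (31 against 501), which carries immunoglobulin A across epithelia. In Hsd11b2, 1 cell held 44.6% of the UMIs of both types. All 10 were lower in type B cells in 4 of 4 libraries, again a description only, since the same test chose them.

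**Figure D3:**
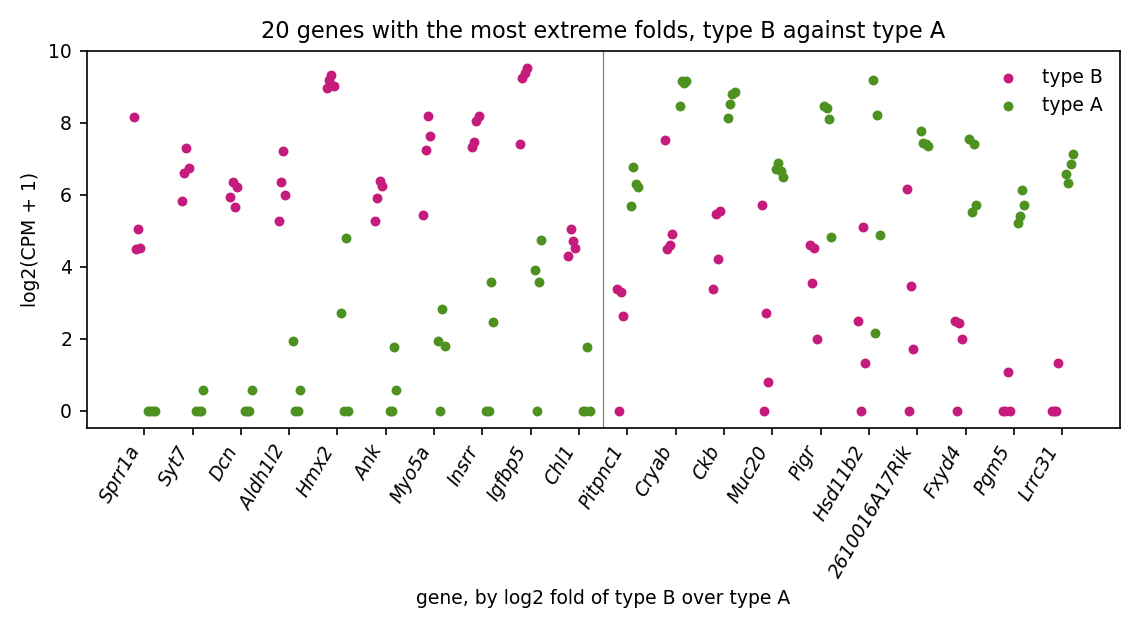
Levels as log2(CPM + 1) in type B and type A cells of the 10 genes with the highest and the 10 with the lowest log2 fold among those past the test, with 1 point per library in the order day 5, day 5 with Lac.z, day 14 and day 28. Hmx2, Insrr, Igfbp5 and Syt7 separate fully between the types; Hsd11b2, Cryab and Muc20 have 1 library with a raised value in type B cells.

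The proton pump itself differed little between the types. Of 18 tested subunit and accessory genes, 2 were higher in type B cells and none was lower, with a median log2 difference of 0.31 against 0.00 over all genes. The 2 were Atp6v1c2, a C subunit isoform found in few tissues, at 566, 682, 845 and 973 CPM against 235, 444, 388 and 510 CPM (log2 difference 1.01, SE 0.15, adjusted p = 6.1e-05), and Atp6ap2, the prorenin receptor and pump accessory protein (0.83, SE 0.15). Atp6v1b1, the B1 subunit typical of intercalated cells, stood at 267, 413, 476 and 480 CPM in type B cells and 280, 302, 576 and 669 CPM in type A cells, and did not pass the test.

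Among 14 tested genes of acid-base and chloride transport, 3 were higher and 2 lower. Carbonic anhydrases hydrate carbon dioxide to bicarbonate and a proton. Car15, a membrane-anchored form, had 74.9, 69.8, 125 and 148 CPM in type B cells and 8.40, 6.94, 25.6 and 9.01 CPM in type A cells, 3.28 higher on the log2 scale (SE 0.28, adjusted p = 6.2e-08). Car12 stood at 655, 558, 1145 and 994 CPM against 454, 479, 444 and 554 CPM (log2 difference 0.82, SE 0.17, adjusted p = 0.0034). The chloride-proton exchanger gene Clcn3 was also higher. The basolateral sodium-potassium-chloride cotransporter Slc12a2 was lower (log2 difference -2.25, SE 0.39). Slc26a7, a type A exchanger, had no UMI in members. Of 12 tested genes for ammonia, potassium and sodium, the ammonia transporters Rhbg (-1.01, SE 0.15) and Rhcg (-0.57, SE 0.14), Fxyd4 and the sodium channel subunit Scnn1b were lower and the scaffold Slc9a3r1 was higher.

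Receptors and signalling genes gave 2 higher and 5 lower of 19. Besides Insrr, Klhl3, the adaptor that targets WNK kinases for degradation, was higher (log2 difference 1.40, SE 0.28, adjusted p = 0.0023). Kit, the stem cell factor receptor, was lower at 122, 0, 105 and 37.5 CPM against 252, 277, 409 and 448 CPM (-2.51, SE 0.31, adjusted p = 9.3e-06), a call not made by DESeq2. The insulin receptor gene Insr was lower (-1.06, SE 0.26), opposite to its relative Insrr. P2ry14, a receptor for UDP-glucose, and Hsd11b2 were lower as well. Oxgr1 was lower with a log2 difference of -0.66 (SE 0.18, adjusted p = 0.020), and this call was lost without the day 14 library (-0.66), without the day 28 library (-0.82), without the block (-0.61) and with DESeq2 (-0.71).

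Of 17 regulators of cell fate, Hmx2, Foxi1 and the Notch ligand Jag1 were higher and Dmrt2, Gata3, Pax2 and Esrrg were lower. Jag1 stood at 126, 150, 144 and 176 CPM against 42.0, 24.3, 49.9 and 40.1 CPM, without overlap (log2 difference 1.96, SE 0.19, adjusted p = 4.6e-07). Dmrt2, a type A transcription factor gene, had 173, 0, 15.5 and 4.50 CPM against 179, 191, 201 and 154 CPM (-2.81, SE 0.46, adjusted p = 3.0e-04), a call lost without the block (-2.54). Its day 5 level in type B cells came from the doublet-scored barcodes, which held 97.3% of those UMIs. Foxi1, the forkhead factor needed to form intercalated cells, lies on chromosome 11 (34204338 to 34208089). It was 421, 333, 701 and 450 CPM against 174, 198, 532 and 418 CPM, a log2 difference of 0.58 (SE 0.16, adjusted p = 0.024). The Foxi1 call was lost without the day 5 library (0.41), without day 14 (0.60), without the block (0.56), at a mitochondrial limit of 25% (0.57), without barcodes carrying Lrp2 or Slc34a1 (0.51) and with DESeq2 (0.61).

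Foxi1 is known to act on pendrin and pump genes, so the 250 bases before the start of Slc26a4 and of the pump gene Atp6v1b1 were searched for the forkhead core TGTTTA on both strands (its reverse complement is TAAACA). Both sequences are from RefSeq, build GRCm38.p6, written 5′ to 3′ on the strand of the gene, with a match in capitals. They are shown because the first gene defines the class and the second is shared by both intercalated types. Slc26a4 lies on the minus strand (chr12:31559985-31560234) and Atp6v1b1 on the plus strand (chr6:83742767-83743016).
Slc26a4: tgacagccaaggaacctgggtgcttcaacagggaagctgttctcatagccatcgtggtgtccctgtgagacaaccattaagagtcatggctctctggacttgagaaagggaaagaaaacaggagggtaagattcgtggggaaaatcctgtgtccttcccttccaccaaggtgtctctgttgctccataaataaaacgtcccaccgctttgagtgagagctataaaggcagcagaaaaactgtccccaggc
Atp6v1b1: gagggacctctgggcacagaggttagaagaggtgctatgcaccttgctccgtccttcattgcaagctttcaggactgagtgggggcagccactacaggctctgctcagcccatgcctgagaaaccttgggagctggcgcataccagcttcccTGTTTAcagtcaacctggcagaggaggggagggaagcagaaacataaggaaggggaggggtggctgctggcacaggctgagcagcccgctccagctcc
Slc26a4 held no match in this window, and Atp6v1b1 held 1 that began 98 bases before the start. The same letters occurred in 1 of 17 pump gene windows (5.88%) and in 3251 of 27025 windows of all genes with an entry (12.0%). A match is a description of letters and not a binding site.

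Immediate early and stress genes, which respond within minutes to stimuli that include tissue dissociation, were the list with the most calls: 12 of 24 were higher in type B cells and 2 lower, with a median log2 difference of 0.54. Ier2 was 1.28 higher on the log2 scale (SE 0.15), Btg2 1.09 (SE 0.15), Jun 0.86 (SE 0.20) and Egr1 0.82 (SE 0.17). Egr1 stood at 1240.3, 692.5, 1376 and 970 CPM against 423, 343, 1099 and 702 CPM, so the groups overlapped across libraries while each library had the higher value in type B cells. Klf4 and Hspa1b were lower, and Hspa1b has a near-identical copy. Per cell the median of the summed list was 12983, 10100, 6080.3 and 3437.8 CPM in type B cells. In type A cells it was 10410, 2969.5, 3148.2 and 4087.1 CPM, so at day 28 the type B median was the lower one. Tubular injury genes gave 7 higher and 3 lower of 16. S100a10 (log2 difference 1.27, SE 0.14), the keratins Krt8 (0.97, SE 0.15) and Krt7 (0.53, SE 0.15), Anxa3 (1.35, SE 0.23) and Tmsb10 were higher in 4 of 4 libraries. Anxa2 was higher in 3 of 4 libraries. S100a6 was called higher, but 54.9% of its UMIs lay in 1 cell. The repair factor gene Sox9 and Gdf15 were among those lower. Per cell the median of the summed injury list was 15477, 7261, 6832 and 5979.5 CPM in type B cells. In type A cells it was 20642, 4318, 4051 and 2813.5 CPM, so at day 5 the type B median was the lower one.

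Defence genes leaned the other way, with 1 of 7 higher and 3 lower. Defb1, the antimicrobial peptide beta-defensin 1, stood at 627, 666, 625 and 373 CPM in type B cells and at 3370.4, 2712, 2424 and 2550.1 CPM in type A cells (log2 difference -2.28, SE 0.17, adjusted p = 7.9e-09), with no overlap. Pigr and the chemokine gene Cxcl16 were lower. Umod, uromodulin of the thick ascending limb, was higher (2.43, SE 0.35), while Ptger3, the only other tested marker of that segment, did not pass the test. Of 12 interferon-response genes Ifit1, Ifi27 and Iigp1 were higher. Energy genes did not separate the types: none of 30 oxidative phosphorylation genes was called, 2 of 24 genes of the citrate cycle and fatty acid use were lower (Idh2 and the coactivator Ppargc1a), and 1 of 16 glycolysis genes, the glucose transporter Slc2a1, was lower. No MHC class I gene of 12 was called.

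Against principal cells, the water- and sodium-reabsorbing neighbours (171 barcodes chosen by Aqp2, Aqp3 and Fxyd4 with no pump UMI), 819 of 6808 genes were higher in type B cells (12.0%) and 864 lower (12.7%), with 2399 at an unadjusted p under 0.05. Leaving out day 14 gave 372 and 433, leaving out day 28 gave 448 and 561, and DESeq2 called 510 genes higher. Hepacam2, an adhesion gene of intercalated cells, had 914 UMIs in members and none in principal cells. Insrr (693), the vasopressin receptor 1A gene Avpr1a (440), Ank (194), Tmem163 (172), Dcn (170) and Cpsf4l (105) also had none. Atp6v1c2, Hmx2 and Syn2 completed the 10 highest. At the other end, Ptger1, Stc1 and Timp2 had no UMI in members, and Aqp4, Avpr2 and Ptgs1 had 1 each against 769, 631 and 445 in principal cells. Apela, Lcn2 and Hsd11b2 were also among the 10 lowest. The 2 vasopressin receptor genes lay apart. Avpr1a stood at 183, 107, 226 and 133 CPM in type B cells and 0 in principal cells. Avpr2, which drives water reabsorption, stood at 0, 0, 1.11 and 0 CPM against 209, 195, 206 and 342 CPM.

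Energy and pump genes were often higher than in principal cells, as were 7 of 8 tested intercalated markers, while Rhcg was lower. Of 5 tested type B markers 4 were higher and Slc4a8 was lower, a call not made by DESeq2. Of 18 pump genes 13 were higher and 1, Atp6v0d1, was lower (median log2 difference 1.80 against 0.00 over all genes). Atp6v1b1 was 2.37 higher (SE 0.18) and Atp6v1a, the catalytic subunit, 1.95 (SE 0.17). The rules split these 2 classes by UMIs of Atp6v1g3 and Atp6v0d2. The counts of pump genes and intercalated markers are therefore a description only, although the genes of the rule were left out. Of 30 oxidative phosphorylation genes 23 were higher and none lower (median 0.75), led by cytochrome c (Cycs, 1.52, SE 0.18). Of 24 citrate cycle and fatty acid genes 16 were higher and Cpt1a was lower. Foxi1 was 6.64 higher (SE 0.28), Oxgr1 6.15 higher (SE 0.35) and Car12 4.62 higher (SE 0.30). The potassium channel genes Kcnj1 (-7.11, SE 0.31) and Kcnj10 (-5.18, SE 0.35) and the sodium channel subunits Scnn1b and Scnn1g were lower. Presentation genes B2m (-0.96, SE 0.17), H2-K1 (-1.25, SE 0.16) and H2-D1 (-1.09, SE 0.21) were among 5 of 13 MHC class I genes that were lower, and none was higher. Epithelial junction genes gave 10 of 20 lower and 1 higher.

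Changes over time were described from sums over members, and a gene was called at a ratio of CPM of at least 1.5 with at least 50 UMIs over both libraries. Where a list is counted without some barcodes, the share over all genes in that setting is not given. The comparison of day 28 with day 14 rests on the most cells and does not use the day 5 library. The day 28 members were shallower, with a median of 8377 against 16577.5 UMIs, and their median mitochondrial share was 22.8% against 17.4%. RNA kept in the nucleus (Malat1, Neat1 and others) had a median of 333 CPM per member at day 28 against 17532 at day 14. Over summed UMIs, 1 of 3 such genes was lower and none higher. The part of depth and RNA quality in these changes was not tested. Of 5349 measured genes 289 were higher at day 28 (5.40%) and 556 lower (10.4%). None of 18 pump genes and none of 30 oxidative phosphorylation genes reached 1.5-fold. Pendrin RNA (Slc26a4) had a ratio of 0.980 (interval 0.914 to 1.05), Insrr 1.11 (0.940 to 1.31) and Jag1 1.23 (0.987 to 1.53). AE4 RNA had a ratio of 0.402 (0.320 to 0.503), a description only since Slc4a9 belongs to the rule. Foxi1 had a ratio of 0.642 (0.573 to 0.718), and 5 of 13 cell fate genes were lower (among them Foxi1, Gata3, Dll1 and Adam10) with none higher. Foxi1 fell short of 1.5-fold as a mean over cells (log2 ratio -0.42) and without barcodes carrying Lrp2 or Slc34a1 (-0.18).

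Immediate early genes were lower at day 28 for 10 of 24, with none higher and a median log2 ratio of -0.51 against -0.06 over all genes. Atf3, a stress-induced transcription factor gene, stood at 711, 413, 1662 and 735 CPM across the 4 libraries, so day 14 was the high one, and its day 28 to day 14 ratio was 0.442 (0.408 to 0.480). In type A cells 11 of 24 were lower and 2 higher, with a median of -0.34. Without doublet-scored barcodes 13 of 24 were lower in type B cells, and without barcodes carrying Lrp2 or Slc34a1 5 of 23. Per cell the summed list ranged from 567 to 75536 CPM at day 14 with a median of 6080.3, and had a median of 3438 CPM at day 28.

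Injury genes were lower at day 28 for 6 of 13. The count without doublet-scored barcodes is not given. The summed list was then 8451 CPM at day 14 and 6921 CPM at day 28, instead of 18671 and 6644 CPM. The median member then had 6299.9 CPM at day 14 and 6218 CPM at day 28. S100a6, among the 6, had 97.9% of its day 14 UMIs in doublet-scored members. Clu, the secreted chaperone clusterin, stood at 571, 397, 1619 and 143 CPM, and without doublet-scored barcodes at 555, 382, 990.2 and 119 CPM, the lowest value at day 28 either way. Spp1, osteopontin, stood at 17392, 4139, 12969 and 3338 CPM. At day 14 doublet-scored members held 75.3% of its UMIs, and without them the level was 4042 CPM and the log2 ratio of day 28 to day 14 was -0.17 instead of -1.96. The other 3 of the 5 lowest genes besides Spp1 and Cd24a were the tight junction gene Cldn4, Adgrf5, which marks type A cells, and P2ry14, at ratios of 0.278, 0.297 and 0.322. Epithelial junction genes were lower for 7 of 18, and for 4 of 16 without doublet-scored barcodes.

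The 5 genes highest at day 28 over day 14 were Kap, Cyp4b1, Akr1c21, Acy3 and Nat8f1, at ratios of 8.69, 6.90, 5.12, 4.45 and 4.14. These are genes of the proximal tubule, which reabsorbs most of the filtrate. In type A cells the same genes had ratios of 5.51, 5.67, 2.84, 3.5 and 2.75. Without barcodes carrying Lrp2 or Slc34a1 Kap had a log2 ratio of 0.39 and lost the call. Proximal tubule markers summed to 65.5, 478, 1270 and 5222 CPM in type B cells and to 42.0, 354, 1115 and 5724 CPM in type A cells. The type B sums rested on few cells: the median member had 72.9, 150, 235 and 358 CPM, 1 Lac.z cell held 85.4% of that library's UMIs of the list, and at day 28 the sum was 1034 CPM without doublet-scored members. At day 28, 55 of 131 members (42.0%) carried an Lrp2 or Slc34a1 UMI. Without doublet-scored barcodes the median log2 ratio of the proximal markers was -0.38 instead of 1.25, and the part of proximal tubule RNA in other results was not tested beyond leaving out those barcodes.

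Day 5 was compared with the other libraries over few cells. With Lac.z, 193 of 1139 measured genes were higher than at day 5 (16.9%) and 166 lower (14.6%). At day 14, 528 of 3296 were higher than at day 5 (16.0%) and 348 lower (10.6%). At day 28, 779 of 4093 were higher (19.0%) and 655 lower (16.0%). These 3 comparisons share the 10 members of the day 5 library, and their lists are not independent.

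Injury genes were lower than at day 5 for 10 of 13 with Lac.z, 9 of 15 at day 14 and 11 of 14 at day 28. S100a6 stood at 4615 CPM at day 5 against 0, 268 and 111 CPM, with 99.8% of its day 5 UMIs in doublet-scored members. Without such barcodes the injury counts were 2 lower and 1 higher of 7 with Lac.z, 1 lower and 2 higher of 9 at day 14, and 2 and 2 of 10 at day 28, and the median log2 ratios at days 14 and 28 changed sign to 0.41 and 0.22. The shares over all genes in that setting are not given, so these counts are a description only. The median member had 15477, 7261, 6832 and 5979.5 CPM of the summed list in library order, and 8293, 7666, 6299.9 and 6218 CPM without doublet-scored barcodes. At day 5 without them, 1 cell still held 63.7% of the list's UMIs.

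**Figure D4:**
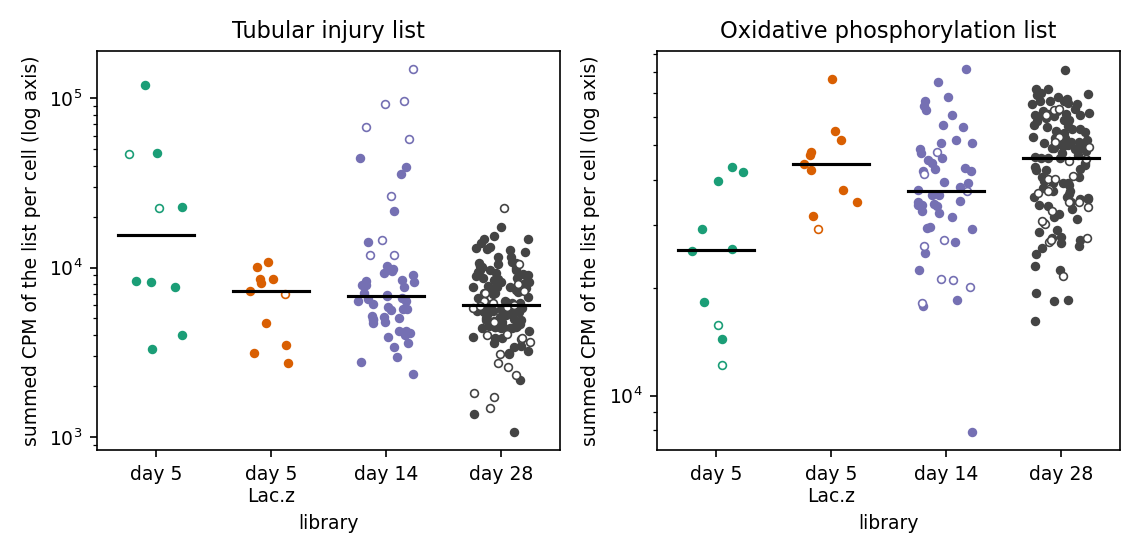
Summed CPM of the tubular injury list and the oxidative phosphorylation list in each of the 206 members (log axis), by library. Filled points are members without and open points with a high doublet score, and lines are medians over all members. The 5 highest injury values at day 14 are open points, and the day 5 median for oxidative phosphorylation, 25473 CPM, is the lowest.

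Oxidative phosphorylation genes were higher with Lac.z than at day 5 for 22 of 30, with a median log2 ratio of 0.66, while none of 30 was called in type A cells. Without doublet-scored barcodes 7 of 30 were higher and the median was 0.42. The share over all genes in that setting is not given, so the 7 are not read as an excess. With all members that share was 16.9%. The median member had 25473, 44239, 37278 and 46059 CPM of the list in library order. RNA kept in the nucleus (Malat1, Neat1 and others), a sign of RNA quality, had medians of 66525, 15008, 17532 and 333 CPM per member. Its sum was 0.698 times that at day 5 with Lac.z, 0.557 times at day 14 and 0.470 times at day 28, against 0.767, 0.544 and 0.670 in type A cells. The part of RNA quality in the library differences was not tested. The day 5 cells ranged from 12203 to 43464 CPM and the Lac.z cells from 29176 to 76587 CPM, so the 2 sets overlapped. Fxyd2, the sodium pump subunit gene, was 3.20 times as high with Lac.z (2.93 to 3.50), Car2, cytosolic carbonic anhydrase, 2.68 times (2.32 to 3.11) and Gpx3, glutathione peroxidase of plasma, 3.44 times (2.92 to 4.05). Without doublet-scored barcodes the ratios were 2.36, 2.37 and 2.76, and in type A cells 1.16, 0.912 and 1.65. In principal cells the ratios were 1.73, 0.712 and 5.30, so that of Gpx3 was higher there than in type B cells. Sult1d1 and Higd1a were the other 2 of the 5 highest. The 5 lowest were Serinc3, Gclc, Junb, Ldha and Egr1, at ratios of 0.518 to 0.558. The interferon list as a sum was 3.53 times as high with Lac.z (2.90 to 4.32) and 1.10 times in type A cells (0.899 to 1.35), but 1 doublet-scored member held 45.2% of its UMIs, and the median member had 489 CPM at day 5 and 616 CPM with Lac.z. Without doublet-scored members the sums were 534 and 1361 CPM, and the median members had 489 and 558 CPM. In the Lac.z library 1 of the remaining cells held 46.9% of the list's UMIs, and 2 cells held 70.2%.

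**Figure D5:**
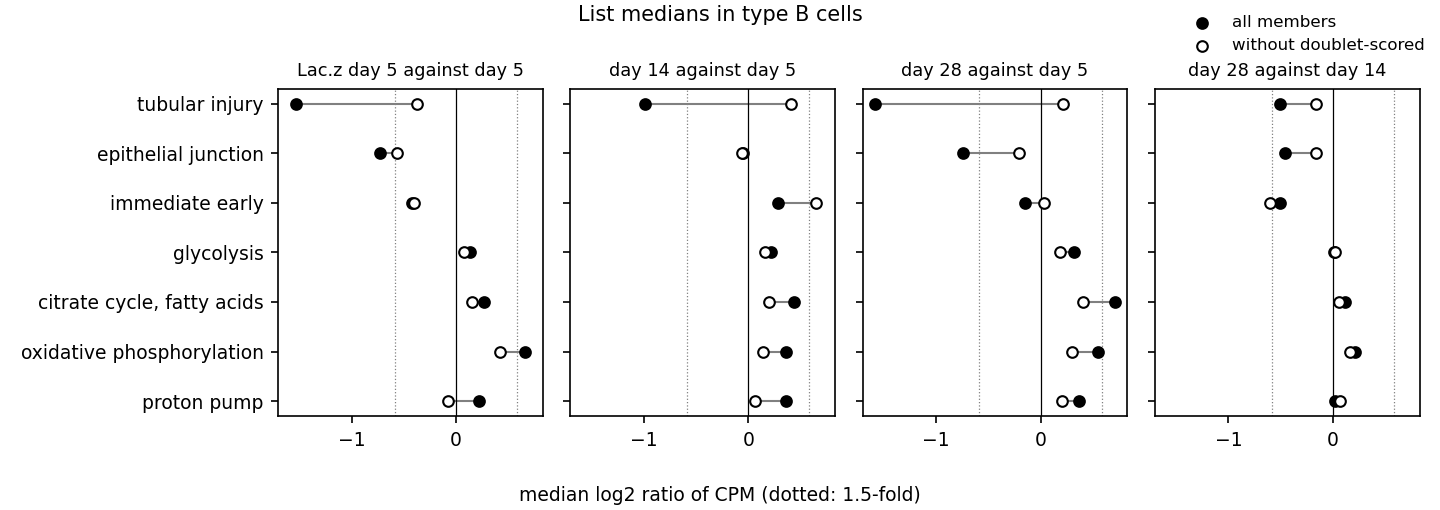
Median log2 ratio of CPM over the measured genes of 7 lists in type B cells for the 4 comparisons of libraries, with all members (filled) and without doublet-scored barcodes (open). Dotted lines mark 1.5-fold. The injury list moves from -1.59 to 0.22 for day 28 against day 5 and from -0.99 to 0.41 for day 14 against day 5, and the pump list stays within 1.5-fold throughout.

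Between day 14 and day 5, Gm42418, a transcript that overlaps a ribosomal RNA repeat, had the highest ratio (7.50), with 4.35 in type A and 5.34 in principal cells. Fetub, Maff, Csrnp1 and Igfbp5 followed at 6.26, 6.20, 4.54 and 4.00. Igfbp5 had ratios of 0.782 in type A cells and 5.19 in principal cells. The 5 lowest were Pdia3, Eif6, Neat1, Clic1 and Dusp11, at ratios of 0.375 to 0.472, and Clic1 lost the call without doublet-scored barcodes (log2 ratio -0.44). Between day 28 and day 5 the 5 highest genes included the proximal tubule genes Ass1, Acsm2 and Lrp2, each with 1 UMI at day 5 and with 253, 216 and 180 UMIs at day 28. The 5 lowest were Adgrf5, Clu, Plp2, Sbno2 and Ly6e, at ratios of 0.193 to 0.287. Acid-base genes were higher than at day 5 for 6 of 10 at day 14 (Slc4a4, Bsnd, Clcn5, Car2, Car12 and Car15) and for 4 of 10 at day 28 (Slc4a4, Car2, Car12 and Car15). Slc4a4 is also a proximal tubule gene. Without doublet-scored members the day 5 sum was 13990 instead of 10517 CPM for intercalated markers and 19806 instead of 15384 CPM for pump genes. Foxi1 and Insrr then lost their day 14 over day 5 calls (log2 ratios 0.32 and 0.33). The acid-base counts in that setting are not given, and the part of doublet-scored members in them was not tested.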

How the data were processed

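Single-cell RNA libraries from 4 groups of kidneys, 1 library each, were analysed. The authors deposited UMI counts per gene and barcode, aligned to mm10 per the submitters' processing notes. Per the file headers the day 5 matrices came from software version 3.0.2 and the later ones from 3.1.0, which cannot be told apart from time. For the aligner, the sources used here give no name. Members and gene lists were chosen with earlier results of these data known.

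Barcodes needed 200 genes and at most 50% mitochondrial UMIs. Counts were summed per library and class, and type B sums were compared with type A and principal sums by edgeR 4.0.16 (filterByExpr, TMM, library as a block, 3 residual degrees of freedom), with the 8 genes of the rule left out. Libraries were compared as CPM (UMIs per 1000000 summed UMIs) with exact Poisson and conditional intervals, a zero being set to a floor of 3 counts. These intervals cover counting error only. Named genes were the 10 with the largest and 10 with the smallest log2 fold past the test, and for libraries the 5 highest and 5 lowest ratios among genes with at least 100 UMIs and no cell above 20%, leaving out mitochondrial and haemoglobin genes. Other named genes belong to the 32 lists. Scrublet in scanpy 1.11.5 scored doublets, taken as 0.8% per 1000 barcodes, and these were left out only as an alternative. DESeq2 1.42.0 was another. The tests were tested on simulated data. Some genes that the rule names are not reported here.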

Additional observations from a re-analysis of the deposited data

Results flagged for a closer look

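A type B signature also appeared in barcodes outside the comparisons: 23 barcodes met every condition except that they carried a Ptprc UMI. Day 5 had 2, the Lac.z library 4, day 14 had 11 and day 28 had 6, or 10.0% of members plus these barcodes. Their median depth was 26539 UMIs, 12 were doublet-scored, and 10 carried a single Ptprc UMI. What they are was not tested.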

How the results depend on the processing

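The type B share of kept barcodes moved at day 5 to 0.412% with barcodes lacking Ptprc as denominator, and at day 28 to 0.755% at a mitochondrial limit of 25%, 0.721% at a class minimum of 4 UMIs and 0.647% after thinning to 2000 UMIs, where the share among intercalated cells was 33.8%. Genes higher in type B than type A cells numbered 151 without the library block, 212 at the 25% limit, 211 without barcodes carrying Lrp2 or Slc34a1, 169 with DESeq2, and 114 to 361 with 1 library left out. Genes lower numbered 475 without a filter, 155 without the block, 174 without Lrp2 or Slc34a1 barcodes, 129 with DESeq2 and 102 to 350 with 1 library left out. Against principal cells, higher genes numbered 510 with DESeq2 and 372 to 926 with 1 library left out, and lower genes 1344 without a filter and 433 to 1029 with 1 library left out.

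Counts between libraries, in the order Lac.z against day 5, day 14 against day 5, day 28 against day 5 and day 28 against day 14, were at a fold of 2 higher for 47, 196, 327 and 79 genes and lower for 65, 75, 191 and 141. With at least 20 UMIs they were 471, 1277, 1494 and 687 higher and 665, 856, 1431 and 1173 lower, and with at least 200 UMIs 68, 88, 199 and 51 higher and 26, 49, 108 and 108 lower. Without doublet-scored barcodes Lac.z gave 121 higher and 99 lower, day 14 gave 202 lower, day 28 against day 5 gave 384 lower and day 28 against day 14 gave 175 higher. As a mean over cells, 994 genes were lower at day 28 than day 5 and 856 lower than at day 14. Without Lrp2 or Slc34a1 barcodes, day 14 gave 342 higher, day 28 against day 5 gave 421 higher and 348 lower, and day 28 against day 14 gave 189 higher and 268 lower. Without doublet-scored barcodes the injury median turned to 0.41 at day 14 and 0.22 at day 28 against day 5, and the proximal tubule median of day 28 against day 14 turned to -0.38. The cause was not tested. Over 51 pairs of a named gene and a class comparison, 567 of 582 checks under an alternative kept direction and side of the threshold, and 15 lost the call, in 6 genes. A gene that was no longer tested under an alternative was not checked there, so some pairs lack checks. Without the day 14 library 38 pairs kept the call and 3 lost it. Most pairs hold the most extreme genes of the same tests, so these checks do not speak for the other called genes. Some alternatives left fewer than 10 members at day 5. The comparisons of cell types were paired within library by the block. No paired analysis was possible because each group is 1 library, where libraries were compared.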
